A study of Homo sapiens with 9 samples.

Results

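The comparison set A549 cells transfected with an siRNA against Nrf2 beside A549 cells transfected with a non-targeting siRNA, called NS siRNA. It held 6 of the 9 arrays of the series, 3 for each siRNA, chosen by their titles. The remaining 3 arrays were mock cultures, which received the transfection reagent alone, and their levels are given beside the results as a further control. All 3 groups were the same human lung adenocarcinoma line, grown in high-glucose medium with serum and treated with a cationic lipid reagent. Each siRNA was given at 25 nM, and the cultures were harvested for RNA at 96 h. The 3 arrays of a group are labelled biological replicates; their labels do not say whether the cultures were handled on separate days. The design has 1 siRNA against Nrf2 and no rescue, so that loss of NRF2 and an off-target action of this siRNA cannot be told apart. RNA came from whole cultures, in which fewer cells of a kind and less RNA per cell cannot be told apart either.

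NRF2, encoded by NFE2L2, is a transcription factor that pairs with small MAF proteins on antioxidant response elements in DNA. Its partner KEAP1 normally delivers it to the proteasome, and oxidants release it from that control. A549 cells carry a mutation of KEAP1 and hold NRF2 active without added stress, which makes them a common model of its loss. The antioxidant, glutathione and detoxification genes are the best known targets; the account here is of the genes beyond them.

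Values are log2 expression levels from an Affymetrix array, so a difference of 1 is a 2-fold change. The median over all probe sets was 7.54, and a gene near or below it is dim, with a fold that can be understated. Replicates lay close together: over the probe sets, Pearson's r lay between 0.9979 and 0.9985 for arrays of 1 siRNA group and between 0.9839 and 0.9862 for arrays of different ones. A gene's SD over 3 arrays had a median of 0.056 for NS siRNA and 0.065 for Nrf2 siRNA. With 3 arrays in each group, their number limits the precision.

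The targeted transcript and its best known targets were low in the cultures labelled Nrf2 siRNA. NFE2L2 stood at 12.09, 12.03 and 12.15 in the NS siRNA arrays and at 10.12, 10.32 and 10.30 in the Nrf2 siRNA arrays. HMOX1, the heme oxygenase, stood at 11.98, 12.08 and 11.88 and at 9.40, 9.38 and 9.33. GCLM, the modifier subunit of glutamate-cysteine ligase, stood at 13.13 in each NS siRNA array and at 10.79, 10.97 and 10.92 after Nrf2 siRNA. The groups did not overlap for any of the 3 genes. NFE2L2 fell by 1.84 ± 0.06 (SE, log2; adjusted p = 1.92e-10), HMOX1 by 2.61 ± 0.07 (adjusted p = 2.08e-11) and GCLM by 2.24 ± 0.05 (adjusted p = 1.3e-11). With all probe sets of the gene averaged, the NFE2L2 difference was -1.03. In a list of 104 measured antioxidant and detoxification genes 71 were lower, 32 of them at least 2-fold, and 8 were higher, 0 of them 2-fold. Among all genes tested 26.6% were lower, 0.713% at least 2-fold lower and 21.0% higher.

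The cells carried the keratins of simple epithelium. KRT8 and KRT18 stood at 14.32 and 14.94 on average in NS siRNA and at 14.37 and 14.99 in Nrf2 siRNA. The lung lineage factor NKX2-1 stood at 7.65 and 7.54, near the median of all probe sets, as did the claudin gene CLDN7 at 7.56 and 7.44. In a list of lung and foregut lineage genes 10 of 31 had an NS siRNA mean below that median. The summed level of 12 epithelial markers was 16.13 to 16.14 in NS siRNA, 16.18 to 16.26 in Nrf2 siRNA and 16.03 to 16.06 in mock. For 8 leukocyte markers it was 10.51 to 10.56, 10.64 to 10.71 and 10.40 to 10.50, in the same order, and for 8 endothelial markers 10.62 to 10.70, 10.47 to 10.63 and 10.56 to 10.64. The leukocyte gene PTPRC stood at 7.26 in both siRNA groups and the endothelial gene PECAM1 at 8.97 and 8.87, neither past the threshold, while CD14, a receptor for bacterial lipopolysaccharide, rose by 0.96 (adjusted p = 8.03e-08).

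Over all 19775 genes tested, 9422 (47.6%) passed an adjusted p of 0.05, 4156 (21.0%) higher and 5266 (26.6%) lower after Nrf2 siRNA. At least 2-fold changes were fewer: 559 genes (2.83%), with 418 higher (2.11%) and 141 lower (0.713%). Of these, all 418 rises and 109 of the 141 falls lay outside the antioxidant list. The 3 arrays of one siRNA did not overlap the 3 of the other for 10701 genes (54.1%), and for all 559 genes of the 2-fold set. The changes past 4-fold were 48 rises and 18 falls.

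**Figure D1:**
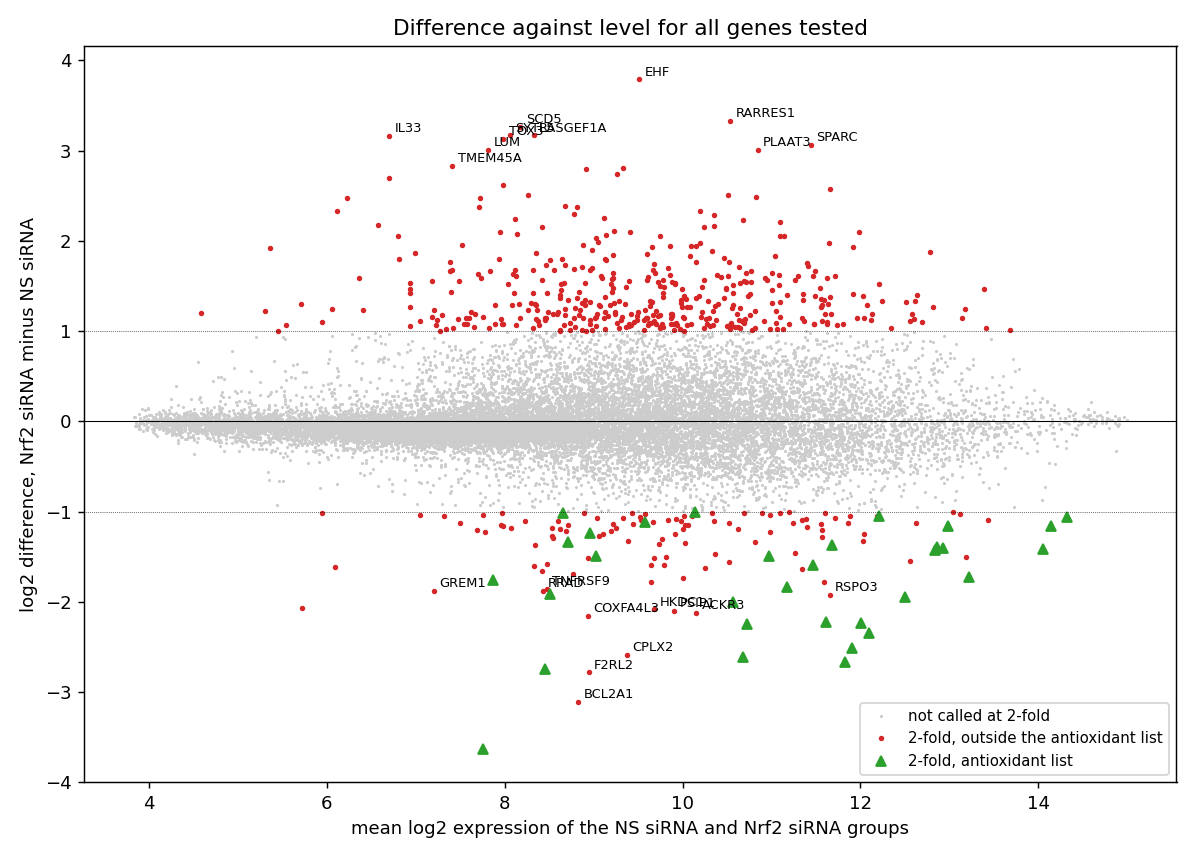
Each point is 1 of 19775 genes, with the mean log2 level of the NS siRNA and Nrf2 siRNA groups across and the log2 difference (Nrf2 siRNA minus NS siRNA) up; dotted lines mark 2-fold. The 32 antioxidant genes past 2-fold (green triangles) all lie below 0, while the other 2-fold genes (red) lie mostly above it, 418 against 109, with EHF at the top and BCL2A1 the lowest red point.

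The plot of difference against level shows 2-fold changes in dim and in bright genes, but few with both group means below the median of all probe sets. Those few were 13 rises and 3 falls. Among the 418 rises, 83 had an NS siRNA mean below the median of all probe sets, as had 6542 of all 19775 genes tested. Among the 141 falls, 20 had a Nrf2 siRNA mean below that median. The size of such changes can be understated, which was not tested. The genes named next were the 40 largest rises and the 40 largest falls outside the antioxidant list whose brighter group lay above that median. Their NS siRNA and Nrf2 siRNA arrays were also required not to overlap, so separate groups in these genes are a rule, not a result. Their differences ran from 2.08 to 3.79 and from -1.27 to -3.11, with an adjusted p of at most 1.38e-07.

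The largest falls outside the antioxidant list by this rule were in BCL2A1, F2RL2 and CPLX2. BCL2A1, a BCL2 relative that blocks cell death, stood at 10.38, 10.48 and 10.29 in NS siRNA and at 7.35, 7.48 and 7.0 in Nrf2 siRNA. F2RL2, the protease-activated receptor PAR3, which thrombin cleaves, stood at 10.33, 10.34 and 10.34 and at 7.48, 7.63 and 7.55. CPLX2, a complexin that clamps SNARE complexes at the step of vesicle fusion, stood at 10.65, 10.69 and 10.68 and at 7.88, 8.12 and 8.25. In each of these genes every NS siRNA array was high and every Nrf2 siRNA array lay near the median of all probe sets. BCL2A1 fell 8.64-fold (-3.11 ± 0.11 SE, adjusted p = 2.28e-10), F2RL2 6.88-fold (-2.78 ± 0.05, adjusted p = 2.04e-12) and CPLX2 6.03-fold (-2.59 ± 0.08, adjusted p = 9.28e-11). Against mock the same 3 genes differed by -1.45, -3.06 and -3.51.

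NAMPT, RSPO3 and SPP1 were brighter genes that fell. NAMPT, the rate-limiting enzyme of NAD salvage, stood at 12.48 in each NS siRNA array and at 10.72, 10.65 and 10.74 in Nrf2 siRNA. RSPO3, an R-spondin that amplifies WNT signalling, stood at 12.62, 12.65 and 12.58 and at 10.85, 10.80 and 10.43. SPP1, which encodes osteopontin, stood at 13.34, 13.35 and 13.31 and at 11.88, 11.76 and 11.72. By the rule of choice no array of one group reached the other, and the lower groups stayed well above the median of all probe sets. NAMPT fell 3.43-fold (-1.78 ± 0.04, adjusted p = 1.49e-11), RSPO3 3.80-fold (-1.93 ± 0.09, adjusted p = 2.37e-09) and SPP1 2.92-fold (-1.55 ± 0.05, adjusted p = 1.22e-10). Their mock means were 13.01, 12.38 and 13.40, so the differences against mock were -2.30, -1.69 and -1.61.

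Further falls were of like size against both controls in some genes and not in others. ACKR3, a decoy receptor for the chemokine CXCL12, stood at 11.28, 11.24 and 11.13 against 9.11, 9.23 and 8.94 and fell 4.36-fold (-1.63 against mock). SRGN, the proteoglycan core serglycin, stood at 12.16, 12.23 and 12.08 against 10.62, 10.52 and 10.41 and fell 3.11-fold (-1.61 against mock). S100P, a calcium-binding protein, stood at 11.94, 12.04 and 12.002 against 10.37, 10.52 and 10.71 and fell 2.75-fold (-1.41 against mock). These levels show the same order in every array, with both controls high. The carboxylesterase CES1 fell by 1.69 (-2.40 against mock), the tetraspanin relative TM4SF20 by 1.33 (-2.47) and GPAT3, an enzyme of triglyceride synthesis, by 1.27 (-1.60). NEIL3, a DNA glycosylase, fell by 1.63 (-1.18 against mock), the histone chaperone ASF1A by 1.59 (-1.27) and UNKL by 1.52 (-1.48). The hexokinase-like gene HKDC1 fell by 2.08 (-0.82), the 14-3-3 protein gene SFN by 1.51 (-0.97), and POLR3G, a subunit of RNA polymerase III, by 1.60 (-0.96). PSIP1, a chromatin-binding coactivator, fell by 2.10 (-2.09), but only 2 of its 4 probe sets had that sign.

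In another set of falls the mock level lay with Nrf2 siRNA, and NS siRNA was the high group. FOSL1, an AP-1 transcription factor, stood at 10.95, 10.91 and 10.76 in NS siRNA, at 9.16, 9.14 and 9.11 in Nrf2 siRNA and at a mean of 9.23 in mock. GREM1, a secreted BMP antagonist, stood at 8.17, 8.08 and 8.18, at 6.31, 6.34 and 6.14, and at a mock mean of 6.31. UPP1, uridine phosphorylase, stood at 11.33, 11.41 and 11.16, at 9.69, 9.85 and 9.69, and at a mock mean of 9.91. So the fall against NS siRNA was 1.74 for FOSL1, 1.88 for GREM1 and 1.56 for UPP1, and the difference from mock was -0.09, -0.05 and -0.16. The same held for RRAD, a RAS-like GTPase (-1.88 against NS siRNA, 0.20 against mock), for COXFA4L3 (-2.16 and -0.23), for INHBB, an activin subunit (-1.37 and -0.11), for INA, a neurofilament relative (-1.33 and -0.12), for CRISPLD2 (-1.58 and -0.22) and for ANKRD33B (-1.60 and -0.19). Their differences from mock thus lay between -0.23 and 0.20.

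**Figure D2:**
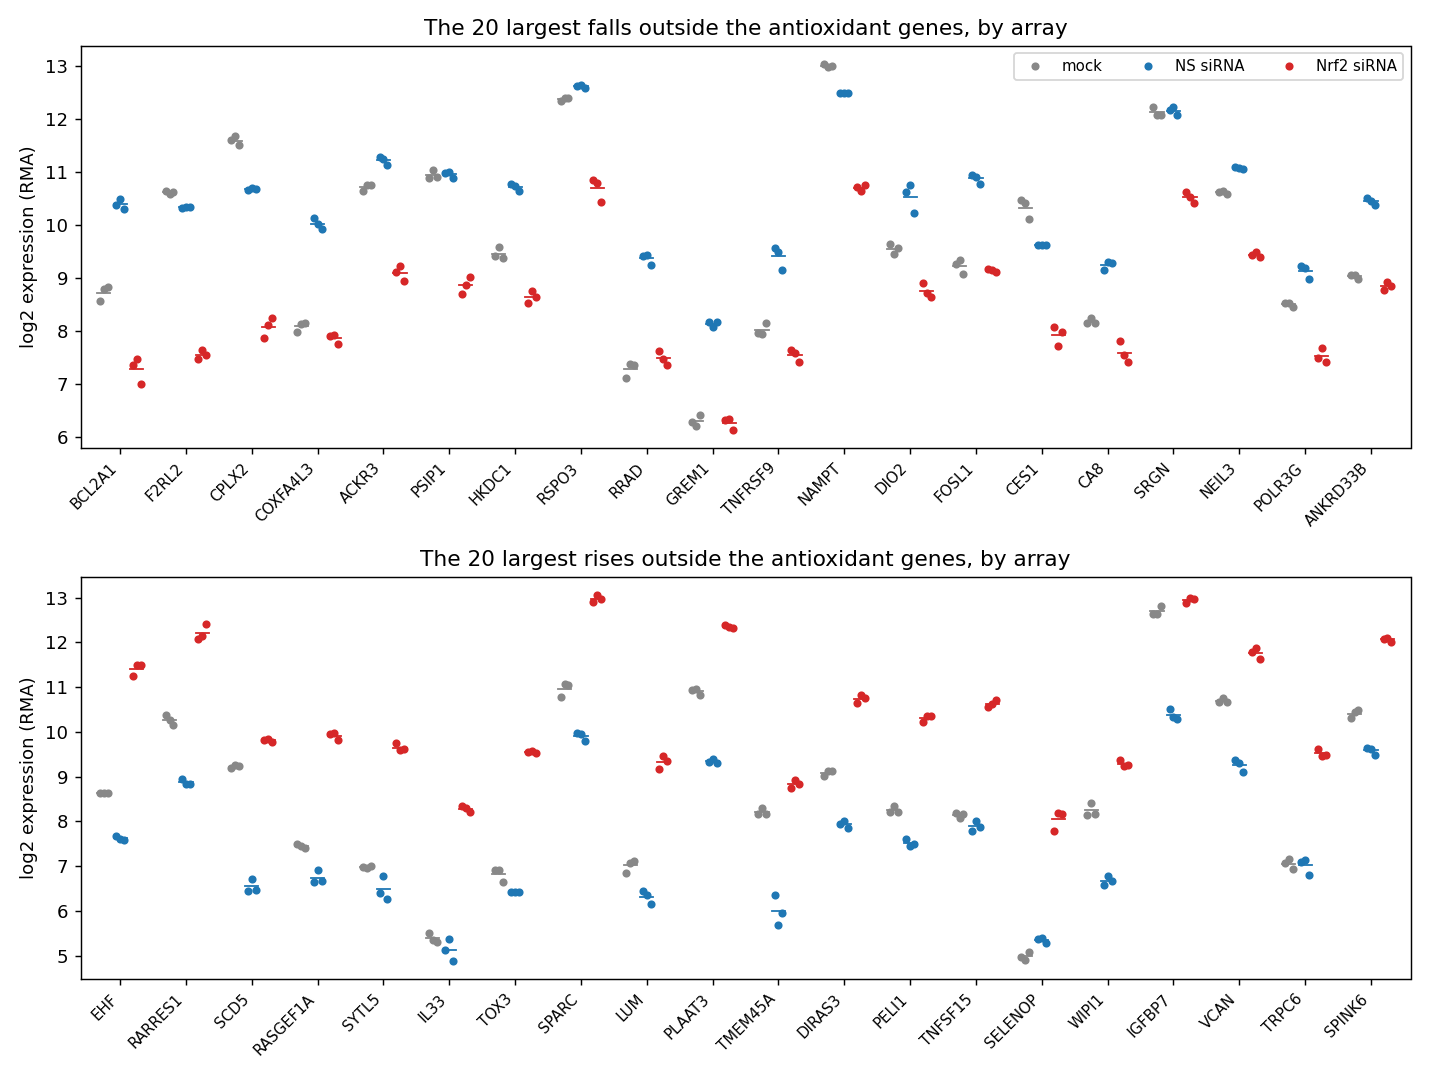
Log2 expression on each of the 9 arrays for the 20 largest falls (upper panel) and the 20 largest rises (lower panel) outside the antioxidant list; points are single arrays, short lines are group means, grey is mock, blue NS siRNA and red Nrf2 siRNA. Red lies apart from blue in every gene shown, as the choice of genes required. Grey lies beside blue for TRPC6 and SRGN and beside red for FOSL1, GREM1 and IGFBP7.

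The plot of values by array shows where mock stood for each large change. The largest rise was in EHF, and TOX3, another transcription regulator, was among the next. EHF, an ETS factor of epithelia, stood at 7.68, 7.60 and 7.57 in NS siRNA and at 11.25, 11.48 and 11.48 in Nrf2 siRNA, with a mock mean of 8.63. TOX3, an HMG-box factor, stood at 6.42, 6.43 and 6.41, at 9.55, 9.58 and 9.52, and at a mock mean of 6.83. Every Nrf2 siRNA array was far above both controls. EHF rose 13.8-fold (3.79 ± 0.06 SE, adjusted p = 2.04e-12), and all 6 of its probe sets had that sign; TOX3 rose 8.74-fold (3.13 ± 0.07, adjusted p = 1.02e-11), with all 4.

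Some of the named rises were in cytokines and in regulators of inflammatory signalling. The lists they belong to held no more higher than lower members: 9 of 41 interleukins, colony-stimulating factors and their receptors were higher and 15 lower, and 4 of 23 chemokines and their receptors were higher and 6 lower. PELI1, a ubiquitin ligase of Toll-like receptor signalling, stood at 7.61, 7.46 and 7.5 and at 10.23, 10.36 and 10.36. TNFSF15, a cytokine of the TNF family, stood at 7.79, 8.01 and 7.86 and at 10.56, 10.61 and 10.72. IL33, an alarmin of the interleukin 1 family, stood at 5.12, 5.36 and 4.88 and at 8.35, 8.29 and 8.21. All 3 were dim in NS siRNA and clearly raised in each Nrf2 siRNA array. PELI1 rose 6.94-fold (adjusted p = 1.02e-11), TNFSF15 6.69-fold (adjusted p = 1.3e-11) and IL33 8.95-fold (adjusted p = 1.07e-10), and against mock they differed by 2.07, 2.49 and 2.90. TNFSF10, the death ligand TRAIL, stood at 5.39, 5.53 and 5.54 against 7.47, 8.01 and 7.49 and rose by 2.17 ± 0.12 (2.24 against mock). TNFAIP6, a hyaluronan-binding protein induced by inflammation, rose by 2.08 (1.90 against mock), the guanylate-binding protein gene GBP3 by 2.25 (2.05) and HLA-DMA, which helps load peptides on MHC class II, by 2.11 (1.54).

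Other rises of this size were in membrane, secretory and metabolic genes. SELENOP, the selenium transport protein, stood at 5.38, 5.39 and 5.29 in NS siRNA and at 7.77, 8.20 and 8.16 in Nrf2 siRNA. TRPC6, a cation channel, stood at 7.10, 7.14 and 6.80 and at 9.62, 9.47 and 9.48. ANXA13, an annexin of epithelia, stood at 9.22, 9.11 and 9.14 and at 11.35, 11.34 and 11.24. In these genes mock lay close to NS siRNA, at means of 4.98, 7.05 and 8.99, and Nrf2 siRNA alone was high. The rises were 2.69 for SELENOP, 2.51 for TRPC6 and 2.16 for ANXA13, and 3.06, 2.47 and 2.33 against mock. Similar on both sides were GDA, guanine deaminase (2.47, and 2.29 against mock), TENT5A, a poly(A) polymerase (2.33 and 2.26), SLITRK6, a neuronal membrane protein (2.30 and 2.09), and SPINK13, a protease inhibitor gene (2.25 and 2.0). Its relative SPINK6, an inhibitor of kallikreins, rose by 2.48 (1.66 against mock), and ANPEP, aminopeptidase N, by 2.15 (1.44), in 1 of 3 probe sets. HMGA2, a chromatin protein, rose by 2.17 (1.12 against mock) in the probe set used, but only 3 of its 9 probe sets had that sign and 2 were called in the other direction.

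Among the rises too there were genes in which NS siRNA was the group that stood apart. TMCO1, a calcium leak channel of the endoplasmic reticulum, stood at 10.05, 10.02 and 9.92 in NS siRNA, at 12.19, 12.26 and 12.16 in Nrf2 siRNA and at a mock mean of 12.10. APLP2, a relative of the amyloid precursor protein, stood at 10.90, 10.91 and 10.98, at 13.06, 13.002 and 13.02, and at a mock mean of 12.82. IGFBP7, a binder of insulin-like growth factors, stood at 10.51, 10.33 and 10.29, at 12.87, 12.997 and 12.97, and at a mock mean of 12.69. Only the NS siRNA arrays were low. Against NS siRNA these genes rose by 2.21, 2.09 and 2.57; from mock they differed by 0.11, 0.20 and 0.26. The protease HTRA1 (2.24 and 0.45), the desaturase SCD5 (3.27 and 0.58) and TMEM45A (2.83 and 0.63) followed the same pattern in part.

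**Figure D3:**
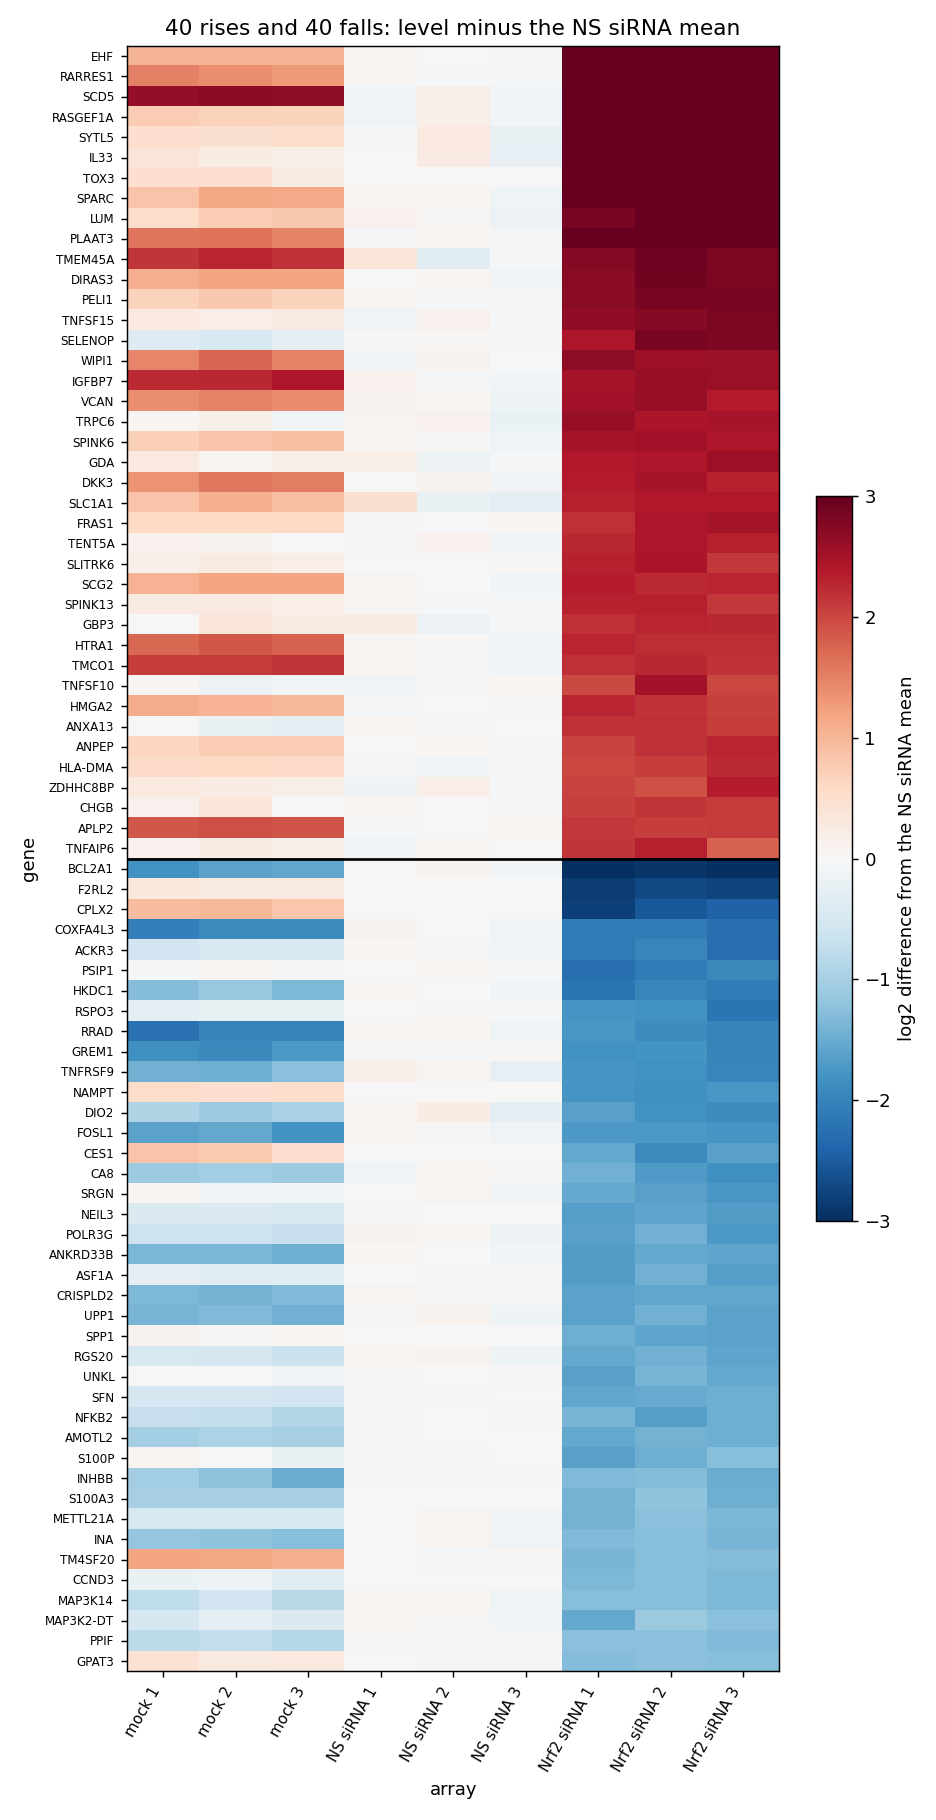
Levels of the 40 rises (above the black line) and 40 falls (below it) on each of the 9 arrays, as the log2 difference from the gene's NS siRNA mean; red is higher and blue lower, and the scale ends at 3 each way. The 3 arrays of a group have like colours; the mock columns are pale for TRPC6 and F2RL2, red for TMCO1 and blue for GREM1.

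The map of relative levels gives all 80 genes at once and shows that mock ranged from the NS siRNA level to the Nrf2 siRNA level from gene to gene. The difference from mock is given in parentheses, with its sign, for most genes named below and for many of the list medians. Every count of higher and lower list members below is to be read beside 21.0% higher and 26.6% lower over all genes.

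The promoters of these genes were read for the letters of the antioxidant response element core, TGACNNNGC, and of the AP-1 core, TGANTCA, since the first is where NRF2 binds and the second is where FOSL1 and its partners bind. Both strands of the 250 bases before the annotated start were searched (RefSeq, GRCh38.p14), and the motifs can overlap, as in TGACTCAGC, which holds both. A match is a description of the letters, not a site or a cause. The antioxidant core stood in 11.98% of the 15384 promoters matched to genes tested, in 14 of 114 of the 2-fold falls (12.3%) and in 33 of 335 of the 2-fold rises (9.85%). The antioxidant list had it in 15 promoters (18.1%), the named falls in 3 of 31 and the named rises in 3 of 30. The AP-1 core stood in 5.23% of all promoters, in 12.3% of those of the 2-fold falls and in 8.06% of those of the rises. For the named falls it was 5 of 31 and for the named rises 6 of 30. Of 88 promoters of 2-fold falls outside the antioxidant list, 9 (10.2%) had the antioxidant core and 9 (10.2%) the AP-1 core. Median GC content was 62.4% over all promoters, 64.2% for the 2-fold falls and 62.0% for the 2-fold rises. Of the 6 named genes with the antioxidant core, 5 are shown with up to 10 bases on each side, to let its variants be compared; capitals mark the match, which in each lies on the opposite strand and therefore reads as the reverse complement.
TNFRSF9, chr1:7940867-7940895, minus strand, a fall: cccgcccctgGCTGAGTCAccgcactcct
NAMPT, chr7:106285050-106285078, minus strand, a fall: cgtcacccgcGCCGCGTCAcggctcccgg
SELENOP, chr5:42811973-42812001, minus strand, a rise: tgctctgcttGCAAGGTCActgcaagaat
TRPC6, chr11:101584231-101584257, minus strand, a rise: tttttaaaGCAGAGTCAtaataacttt
SLITRK6, chr13:85799423-85799451, minus strand, a rise: gggcttaaagGCTGAGTCAaaagccaaga
The matches of TNFRSF9 and SLITRK6 have the same 9 letters, which also hold the AP-1 core, and these genes went in opposite directions: TNFRSF9, the costimulatory receptor CD137, fell by 1.86 (-0.47 against mock) and SLITRK6 rose by 2.30. The AP-1 core alone is shown for a pair of falls and a pair of rises.
F2RL2, chr5:76623424-76623450, minus strand, a fall: aggcttggccTGAGTCAtgcttactga
UPP1, chr7:48088587-48088613, plus strand, a fall: tcgaagtgaaTGAGTCActtcccctcc
TNFSF15, chr9:114792634-114792660, minus strand, a rise: ctctttcttcTGAGTCAccctgtcctt
GBP3, chr1:89022873-89022899, minus strand, a rise: ttatggttacTGAGTCActtccttgaa
All 4 have the same 7 letters, TGAGTCA, in genes that fell and in genes that rose. Last, the full 250 bases of the largest rise and of a leading fall are given to show the sequence around such changes. The fall shown holds a match, whereas the promoters of BCL2A1 and CPLX2, the other leading falls, hold neither core.
F2RL2, chr5:76623404-76623653, minus strand: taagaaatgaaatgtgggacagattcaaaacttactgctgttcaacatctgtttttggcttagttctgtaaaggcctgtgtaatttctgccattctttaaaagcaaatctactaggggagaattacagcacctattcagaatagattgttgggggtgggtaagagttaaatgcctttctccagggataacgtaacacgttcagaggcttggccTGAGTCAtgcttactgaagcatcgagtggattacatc
EHF, chr11:34624007-34624256, plus strand: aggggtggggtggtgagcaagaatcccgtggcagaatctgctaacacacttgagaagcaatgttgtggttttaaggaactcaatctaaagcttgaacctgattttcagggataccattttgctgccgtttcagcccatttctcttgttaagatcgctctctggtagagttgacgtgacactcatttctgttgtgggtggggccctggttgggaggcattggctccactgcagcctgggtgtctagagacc
In F2RL2 the AP-1 core begins 37 bases before the start, and GC content is 40.8%; in EHF neither core is among these letters, and GC content is 50%.

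Called genes of the extracellular matrix were more often higher than lower, where over all genes 21.0% were higher and 26.6% lower. Of 29 measured collagens 12 were higher, 5 of them at least 2-fold, and 4 lower; of 38 matrix glycoproteins and proteoglycans 15 were higher, 8 of them 2-fold, and 5 lower. The list medians were 0.04 and 0.04 (0.02 and 0.03 against mock), beside -0.05 over all genes. SPARC, a collagen-binding matricellular protein, stood at 9.98, 9.96 and 9.79 in NS siRNA and at 12.90, 13.05 and 12.96 in Nrf2 siRNA. VCAN, the proteoglycan versican, stood at 9.36, 9.30 and 9.10 and at 11.79, 11.88 and 11.64. FBN1, which encodes fibrillin 1 of microfibrils, stood at 8.75, 8.65 and 8.63 and at 10.45, 10.64 and 10.49. No arrays overlapped. SPARC rose 8.35-fold (2.01 against mock on the log2 scale), VCAN 5.71-fold (1.08) and FBN1 3.61-fold (1.72, with all 3 probe sets in that direction). The basement membrane genes NID1 and FRAS1 rose by 2.05 and 2.37 (1.10 and 1.78 against mock), and LUM, the small proteoglycan lumican, by 3.01 (2.31). SPP1, described above, fell. The number of lower glycoproteins was 3 without NS siRNA replicate 3, without Nrf2 siRNA replicate 2 or without mock replicate 3.

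Among the collagens the rises were of several kinds. COL21A1, a minor collagen of fibrils, stood at 6.50, 6.51 and 6.50 and at 8.27, 8.39 and 8.16, and rose by 1.77 ± 0.06 (2.24 against mock). COL11A1 rose by 1.52 (0.65 against mock), COL3A1 by 1.73 (0.99), COL1A1 by 1.12 (0.18) and the basement membrane chain COL4A5 by 1.03 (0.59); 3 of 5 probe sets of COL3A1 and of COL1A1 had that sign. SERPINH1, the collagen chaperone, stood at 10.83, 10.86 and 10.81 and at 12.45, 12.40 and 12.41, and rose 3.01-fold (1.07 against mock). PCOLCE2, an enhancer of procollagen cleavage, fell by 1.08 (-1.24). Fibroblast markers moved with this group: their summed level over 10 genes was 11.36 to 11.42 in NS siRNA, 12.20 to 12.39 in Nrf2 siRNA and 11.78 to 12.02 in mock, with LUM, COL3A1 and COL1A1 among them. In that list 4 genes rose, the fourth being THY1 by 0.34 (0.22 against mock), and TCF21 fell by 0.16 (-0.05). The other fibroblast markers stayed near the median of all probe sets or below it and did not pass: PDGFRA differed by 0.01, PDGFRB by -0.06, DCN by -0.06, COL1A2 by 0.00 and FAP by 0.02.

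Of 18 integrin chains 8 were higher and 4 lower, with a median of 0.11 (0.07 against mock), and of 32 matrix proteases and their inhibitors 13 were higher and 8 lower. The shares over all genes were 21.0% higher and 26.6% lower. The median of the integrin chains was 0.06 without Nrf2 siRNA replicate 3. ITGB8, a chain of the integrin that activates latent TGF-beta, stood at 6.58, 6.56 and 6.49 and at 8.52, 8.61 and 8.37, and rose by 1.96 ± 0.06 (3.23 against mock). ITGA6 and ITGB4, the pair that binds laminin in hemidesmosomes, rose by 1.29 and 1.23 (1.05 and 1.24 against mock). ITGAV was among the lower integrin chains (-0.43, and -0.19 against mock). The membrane protease MMP24 rose by 1.56 (1.14 against mock) and the interstitial collagenase MMP1 by 1.30 (1.46), from 5.01, 5.08 and 5.09 to 6.59, 6.57 and 5.91, all below the median of all probe sets. The protease inhibitor TIMP1 rose by 0.88 (0.39). MMP2 rose by 1.42 (0.13 against mock) in the probe set used and in 1 of 3 overall. Enzymes that act on heparan sulfate rose as well: SULF2, a sulfatase that trims it, by 1.33 (0.91) and EXT1, a polymerase of that chain, by 0.97 (0.67). CD44, the hyaluronan receptor, rose by 0.76 (0.67 against mock) with all 13 probe sets in that direction.

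The coagulation group held one of the largest falls and several rises. Of 19 measured genes of protease-activated receptors, coagulation and plasminogen activation 10 were higher and 3 lower, with a median of 0.51. FGB and FGG, chains of fibrinogen, rose by 1.68 and 1.77 (1.51 and 1.37 against mock): FGB went from 8.77, 8.87 and 8.86 to 10.41, 10.50 and 10.62, and FGG from 9.66, 9.73 and 9.51 to 11.32, 11.45 and 11.43. SERPINE2, an inhibitor of thrombin and urokinase, rose by 1.11 (0.92), the thrombin cofactor THBD, thrombomodulin, by 1.10 (0.62), factor V (F5) by 0.84 (0.92) and the urokinase receptor PLAUR by 0.70 (0.90). F2RL2 fell, and so did the urokinase gene PLAU (-0.87, and 0.00 against mock). The median of the same list was 0.37 against mock and 0.05 for NS siRNA against mock. The count of lower members was 5 with quantile normalization.

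Of 25 genes of adherens junctions and desmosomes 14 were higher and 3 lower, 0 of them at least 2-fold, with a median of 0.16 (0.23 against mock); over all genes 21.0% were higher and 26.6% lower. The lower members were 1 without NS siRNA replicate 2. In other epithelial lists, 5 of 20 tight junction genes were higher and 4 lower (median -0.10, and 0.02 against mock), and 6 of 21 epithelial-mesenchymal regulators and mesenchymal genes were higher and 6 lower. Of 14 keratins 4 were higher and 2 lower (1 lower without NS siRNA replicate 1, NS siRNA replicate 2 or Nrf2 siRNA replicate 1). CDH17, a cadherin of the gut, rose by 0.99, DSP, desmoplakin, by 0.78 and NECTIN3, an adhesion receptor, by 0.81 (0.68, 0.53 and 0.75 against mock). Among tight junction genes CLDN2, a claudin that forms cation pores, rose by 1.62 (1.15), from 9.0, 8.99 and 9.15 to 10.66, 10.77 and 10.59, and CXADR, a virus receptor at junctions, by 1.08 (1.20), while CLDN12 and CLDN1 fell by 0.99 and 0.60 (-0.70 and 0.46 against mock). AGR2, a disulfide isomerase of mucus-secreting cells, stood at 11.76, 11.93 and 11.86 and at 13.56, 13.73 and 13.88, and rose 3.66-fold (1.44 against mock). CEACAM1, an adhesion molecule, stood at 8.42, 8.40 and 8.39 and at 9.99, 10.07 and 10.07, and rose 3.12-fold (1.74 against mock); CEACAM sequences are alike, so its probe sets may read its relatives. The mucin MUC13 rose by 1.22 (0.92), the keratin KRT19 by 1.15 (1.95), and the adhesion genes EPCAM and CDH1 by 0.48 each (1.20 and 0.94). KRT80 fell by 0.87 (0.25 against mock) and SNAI1, a repressor of epithelial genes, by 0.77 (-1.51). The tetraspanins CD9 and TSPAN7 went apart, CD9 rising by 1.07 (1.10), in 1 of 3 probe sets, and TSPAN7 falling by 1.11 (-1.11).

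In the EGF receptor family 5 of 15 measured receptors and ligands were higher and 6 lower, with a median of -0.03 (0.15 against mock). These shares were 33.33% and 40%, beside 21.0% and 26.6% over all genes. EGFR, the epidermal growth factor receptor, stood at 9.08, 9.19 and 9.09 in NS siRNA and at 11.03, 11.08 and 11.10 in Nrf2 siRNA. EREG, the EGFR ligand epiregulin, stood at 12.11, 11.86 and 11.98 and at 10.73, 10.90 and 10.80. NRG1, neuregulin 1, a ligand of the related receptors ERBB3 and ERBB4, stood at 12.41, 12.45 and 12.41 and at 11.30, 11.44 and 11.16. EGFR rose 3.86-fold (1.95 ± 0.05, adjusted p = 1.33e-11), with 6 of 9 probe sets in that direction, and EREG and NRG1 fell 2.26-fold and 2.18-fold. Against mock they differed by 0.90, -0.47 and -0.53. The EGFR ligand BTC, at 6.21 on average in NS siRNA, rose by 0.97 (0.63), and HBEGF, another, fell by 0.68 (0.42 against mock). The ligands of EGFR thus differed among themselves in direction.

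Genes known as feedback of the ERK pathway, which those receptors drive, were more often higher: 13 of 23 against 3 lower, with a median of 0.16 (0.32 against mock). DUSP6, the phosphatase of ERK, stood at 9.76, 9.79 and 9.70 and at 11.20, 11.29 and 11.20, and rose 2.78-fold (1.82 against mock). SPRY2, an inhibitor of receptor signalling, rose by 1.07 (1.60), DUSP10 by 0.91 (1.46) and the ETS factor ETV5 by 0.63 (0.34). DUSP5 went the other way, by -0.80 (-1.25), as did FOSL1. Quantile normalization put the lower members at 5. Among immediate-early factors NR4A2, an orphan nuclear receptor, rose by 1.95 (1.34 against mock), from 7.95, 7.90 and 7.87 to 9.91, 9.92 and 9.74, FOS rose by 0.96 (0.32) and MYC, a driver of growth genes, fell by 0.88 (-0.67), from 12.57, 12.60 and 12.63 to 11.76, 11.73 and 11.68. Of the RGS proteins, which shorten signals of G proteins, RGS2 rose by 1.61 (1.05) and RGS20 fell by 1.52 (-0.98).

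Phosphodiesterases, which break down cyclic nucleotides, rose in several members. PDE3A stood at 9.14, 9.17 and 9.23 and at 11.10, 11.12 and 11.15 and rose by 1.95 (0.65 against mock). PDE8B stood at 7.61, 7.60 and 7.61 and at 9.0, 9.08 and 8.99 and rose by 1.42 (1.57). Together with the adenylyl cyclases, 11 of 25 were higher, 4 at least 2-fold, and 3 lower; PDE8A and the cyclase ADCY9 rose by 1.19 and 1.34 (0.57 and 0.49). With quantile normalization 5 were lower. Shares over all genes were 21.0% higher and 26.6% lower.

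Receptors of the TGF-beta family rose against NS siRNA, with an uneven standing against mock. TGFBR2 stood at 10.95, 11.03 and 10.88 in NS siRNA, at 12.89, 12.88 and 12.87 in Nrf2 siRNA and at a mean of 11.80 in mock. TGFBR1 stood at 10.94, 10.87 and 11.02, at 11.92, 12.09 and 12.05, and at 12.37 in mock. The ligand TGFB1 stood at 9.98, 10.03 and 10.03, at 11.18, 11.17 and 11.26, and at 11.50 in mock. TGFBR2 was highest after Nrf2 siRNA, whereas TGFBR1 and TGFB1 were highest in mock. TGFBR2 rose by 1.93 against NS siRNA (1.08 against mock), TGFBR1 by 1.08 (-0.35) and TGFB1 by 1.19 (-0.30), and the latent TGF-beta binding protein LTBP1 by 1.29 (0.78). The ligand TGFB2 and the transducer SMAD3 fell by 0.77 and 0.56 (-0.55 and -0.25). Of 28 genes 15 were higher and 5 lower, and the median was 0.20 against NS siRNA and -0.02 against mock. In the BMP pathway 15 of 24 were higher and 2 lower, with a median of 0.25 on both sides (0.15 with all probe sets of a gene averaged): the receptors BMPR2 and BMPR1B rose by 1.06 and 0.92 (0.49 and 0.58), the inhibitory SMAD6 by 1.03 (0.58) and the ligand BMP4 by 0.63 (0.75). Without Nrf2 siRNA replicate 1, 4 BMP genes were lower.

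The insulin-like growth factor axis rose in 10 of 17 measured genes, with 1 lower and a median of 0.56. With all probe sets of a gene averaged the median was 0.27. IRS1, the docking protein of the insulin receptor, stood at 10.14, 10.12 and 10.14 and at 11.66, 11.74 and 11.75, and rose 3.00-fold (0.84 against mock). The binding proteins IGFBP3 and IGFBP1 rose by 1.41 and 1.23 (0.49 and 1.77 against mock), IGFBP6 by 0.63 (0.07) and the receptor IGF1R by 0.56 (0.05). NS siRNA was the low group for much of this list: its median was 0.07 for Nrf2 siRNA against mock and -0.47 for NS siRNA against mock. In the WNT pathway, 17 of 46 were higher and 12 lower (7 without NS siRNA replicate 3). The inhibitor DKK1 stood at 11.85, 11.89 and 11.81 and at 13.07, 13.19 and 13.28 and rose by 1.33 (1.99 against mock), DKK3 rose by 2.39 (0.90), in 4 of 6 probe sets, LGR6, a receptor of R-spondins, rose by 1.13 (0.93), and the R-spondin gene RSPO3 fell. The Notch target HES1 rose by 1.07 (0.42) while HEY1 fell by 0.40 (-0.12).

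**Figure D4:**
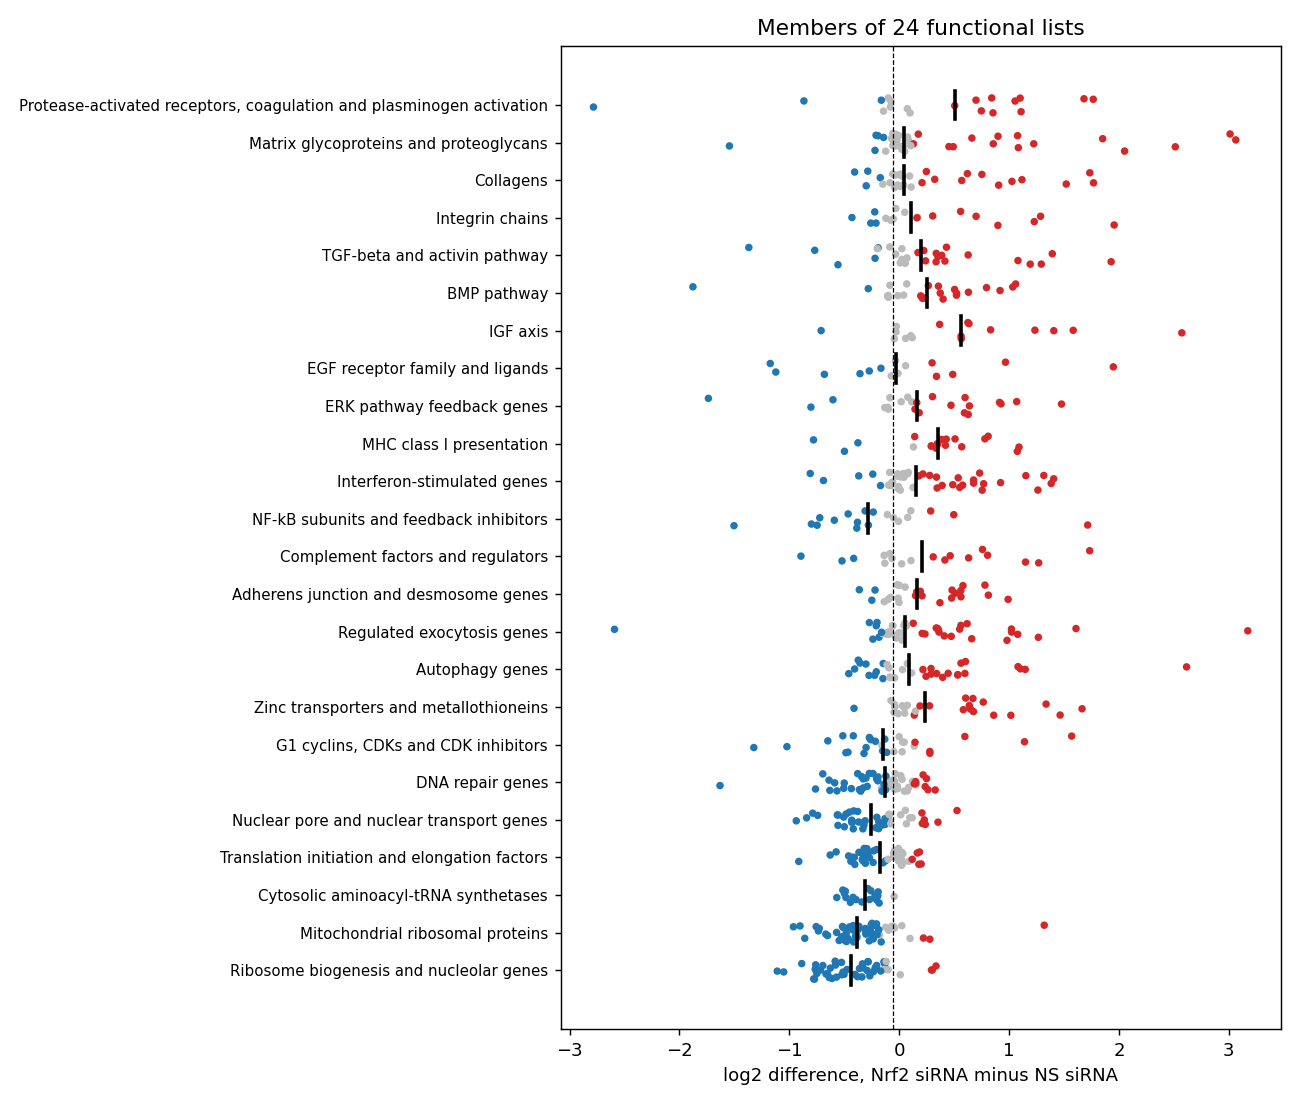
Each point is a measured gene of 1 of 24 functional lists, placed by its log2 difference, Nrf2 siRNA minus NS siRNA; red passed the test as higher, blue as lower and grey did not pass, and the vertical position within a list is arbitrary. Black bars are list medians and the dashed line is the median of all genes, -0.05; the median is 0.56 for the IGF axis, 0.51 for the coagulation list and -0.44 for ribosome biogenesis.

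The plot of functional lists shows that lists with many small changes, such as ribosome biogenesis, stand beside lists that hold 2-fold changes in both directions, such as the coagulation list. All 74 functional lists together, not only those plotted, held 2127 of the 19775 genes tested. They included 124 of the 418 genes at least 2-fold higher and 37 of the 141 at least 2-fold lower. The lists were chosen with earlier results of these data known, so this overlap is a description only.

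Among immune genes, presentation on MHC class I rose broadly. Of 19 measured genes 15 were higher and 3 lower, with a median of 0.35 (0.20 against mock, and -0.13 for NS siRNA against mock). HLA-C stood at 11.08, 11.06 and 11.10 and at 12.18, 12.13 and 12.16, with a mock mean of 11.80. HLA-E stood at 9.96, 10.05 and 9.98 and at 11.12, 11.05 and 11.08, with a mock mean of 10.46. They rose by 1.07 and 1.09 (0.35 and 0.63 against mock) and HLA-B by 0.78 (0.24); these genes are nearly alike in sequence, so 1 of them may lend signal to another. The immunoproteasome subunit PSMB9 fell by 0.78 (0.20 against mock). HLA-DMB, next to HLA-DMA, rose by 1.31 (1.32).

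Of 42 genes in the list Interferon-stimulated genes 21 were higher and 5 lower, with a median of 0.15 (0.16 against mock); with dim genes filtered out, 13 of 25 were higher. With the most variable probe set of each gene the median was 0.31. The antiviral membrane proteins IFITM2 and IFITM3 rose by 1.41 and 1.32 (1.24 and 1.08): IFITM3 went from 10.29, 10.38 and 10.37 to 11.65, 11.64 and 11.70, and the pair may share signal. OAS1, a sensor of double-stranded RNA, stood at 8.40, 8.46 and 8.44 and at 9.76, 9.78 and 9.91, and rose by 1.38 (0.64). DTX3L and its partner PARP9 rose by 1.26 and 0.92 (0.74 and 0.69), and IRF9, a subunit of the interferon-activated transcription factor, by 0.75 (0.53). For NS siRNA against mock the median of this list was 0.00.

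The NF-kB group was mostly lower, with an exception among its largest changes. Of 19 subunits and inhibitors 11 were lower and 3 higher, with a median of -0.28 (-0.17 with the most variable probe set of each gene), but the median was 0.03 against mock and 0.26 for NS siRNA against mock. NFKB2, the p100 subunit, stood at 10.53, 10.57 and 10.60 and at 9.16, 8.92 and 9.11, with a mock mean of 9.80. MAP3K14, the kinase that leads to p100 processing, stood at 10.50, 10.47 and 10.30 and at 9.14, 9.14 and 9.07, with a mock mean of 9.70. NFKBIZ, an atypical nuclear inhibitor and coactivator, stood at 9.84, 9.85 and 9.65 and at 11.52, 11.47 and 11.50, with a mock mean of 9.48. The first pair was highest in NS siRNA and lowest in Nrf2 siRNA, and NFKBIZ was high only in Nrf2 siRNA. NFKB2 fell by 1.5 (-0.74 against mock), MAP3K14 by 1.31 (-0.58), and NFKBIZ rose by 1.71 (2.02). The inhibitors NFKBIE and TNFAIP3 fell by 0.80 and 0.75 (-0.25 and -0.17).

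The complement and prostaglandin lists held genes of both directions. Of 31 prostaglandin and eicosanoid genes 6 were higher (19.35%) and 10 lower (32.26%), with a median of -0.07 (-0.02 against mock). These shares lay near those over all genes, 21.0% and 26.6%, so the list as a whole did not stand out. In complement, 9 of 18 were higher and 3 lower: CFI, the protease factor I, rose by 1.73 (1.35 against mock), C5 by 1.27 (1.09), and the membrane inhibitors CD59, CD55 and CD46 by 1.15, 0.76 and 0.80 (0.75, 1.19 and 0.33), while the protease C1S fell by 0.89 (-1.71). PTGS2, the inducible cyclooxygenase, stood at 9.90, 9.90 and 9.85 and at 11.49, 11.35 and 11.40, and rose 2.88-fold (1.55 against mock). HPGD, which degrades prostaglandins, stood at 12.15, 12.22 and 12.17 and at 13.43, 13.47 and 13.42, and rose 2.40-fold (0.95). PLA2G4A, the phospholipase that frees arachidonic acid and the neighbour of PTGS2 on its chromosome, rose 2.97-fold (0.48 against mock on the log2 scale), whereas the synthase PTGES fell by 0.66 (-0.21). Among chemokines CXCL1 and CXCL2 rose by 0.79 and 0.53 (0.94 and 0.69), with 1 of 3 probe sets of CXCL2 in that direction, and ACKR3 fell; the CXCL1 and CXCL2 sequences are alike. IL15 rose by 1.07 but stood below mock (-0.31).

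Several developmental transcription factors rose beside EHF. SOX2, a factor of stem cells and airway epithelium, stood at 9.22, 9.34 and 9.21 and at 10.64, 10.80 and 10.73 and rose by 1.47 (1.64 against mock). SOX17, an endoderm factor, stood at 7.22, 7.45 and 7.5 and at 8.66, 8.87 and 8.90 and rose by 1.42 (1.38). HOXB8 rose by 1.27 (1.22) from a mean of 6.31, and HOXB3 by 0.89 (0.80). Of 25 ETS factors ELK3 rose by 1.41 (0.58) and ETS1 fell by 1.19 (-0.31), from 9.24, 9.18 and 9.23 to 8.02, 8.0 and 8.06, with a mock mean of 8.33. FOXN3 rose by 1.53 (0.22 against mock), in 5 of 8 probe sets.

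Genes of regulated secretion and of autophagy rose in part, beside 21.0% higher and 26.6% lower over all genes. Of 43 genes of exocytosis 20 were higher and 7 lower (4 without Nrf2 siRNA replicate 3), with a median of 0.05 (0.00 against mock). SYTL5, a synaptotagmin-like partner of RAB27, stood at 6.41, 6.77 and 6.25 and at 9.74, 9.59 and 9.61 and rose by 3.17 (2.66 against mock). SYT13 rose by 1.61 (1.04) and UNC13B, a priming factor, by 1.02 (0.92), and the granule proteins SCG2 and CHGB rose by 2.29 and 2.10 (1.15 and 1.92). SNAP25, a SNARE of the plasma membrane, rose by 1.27 but stood at the mock level (-0.04), and CPLX2 fell. Of 34 autophagy genes 16 were higher and 10 lower, with a median of 0.09 (-0.03 against mock, and 0.04 without NS siRNA replicate 3). WIPI1, which binds the forming autophagosome, stood at 6.58, 6.77 and 6.67 and at 9.37, 9.24 and 9.25 and rose 6.13-fold (1.04 against mock). MAP1LC3B and GABARAP, which are attached to autophagosome lipids, rose by 1.15 and 1.10 but stood close to mock (0.13 and 0.02); ATG2B rose by 1.08 (0.45). The lysosomal protease CTSH rose by 1.13 (1.11) and the lysosomal channel MCOLN1 fell by 0.65 (-0.62).

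Metal-binding and selenium genes included some of the brightest rises. MT1X, a metallothionein, which binds zinc and copper, stood at 12.57, 12.76 and 12.63 and at 14.19, 14.13 and 14.02. MT2A stood at 13.13, 13.23 and 13.16 and at 14.21, 14.21 and 14.13. MT1F stood at 10.66, 10.67 and 10.63 and at 12.38, 12.40 and 12.17. The groups were well apart, and mock lay beside NS siRNA at 12.82, 13.27 and 10.79. MT1X rose 2.76-fold, MT2A 2.02-fold and MT1F 3.17-fold (1.30, 0.91 and 1.53 against mock on the log2 scale), and MT1H 2.52-fold (1.23); metallothionein genes are nearly alike and may share probe signal. With the zinc transporters 15 of 26 were higher and 1 lower (5 lower with the most variable probe set of each gene). The zinc importer SLC39A10 rose by 0.86 against NS siRNA and stood at the mock level (0.00). Of 22 selenium genes 10 were higher and 6 lower: beside SELENOP, SELENOW rose by 0.75 (0.18), and DIO2, the deiodinase that activates thyroid hormone, fell by 1.78 (-0.79), with SEPHS2, which makes the selenium donor, down by 0.72 (-0.72). Among channels TRPA1, a sensor of electrophiles, stood at 8.77, 8.80 and 8.85 and at 10.44, 10.55 and 10.66 and rose by 1.75 (1.61), and the potassium channel KCNJ16 by 1.61 (2.32). The glutamate transporter SLC1A1 rose by 2.38 (1.44).

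Metabolic genes outside the redox pathways changed one by one. PDK4, the kinase that shuts off pyruvate dehydrogenase, stood at 10.11 on average in NS siRNA, 12.16 in Nrf2 siRNA and 11.14 in mock, and rose by 2.05 ± 0.05 against NS siRNA (adjusted p = 3.12e-11) and by 1.03 against mock. PFKP, a phosphofructokinase, fell by 1.13 (-0.85 against mock), SLC2A1, a glucose transporter, by 0.49 (-0.73) and FASN, fatty acid synthase, by 0.59 (-0.43), while the transporter SLC2A3 rose by 0.75 (0.66). Of 44 measured subunits of oxidative phosphorylation 15 were lower and 5 higher (8 with quantile normalization), CYC1 among the lower (-0.50, and -0.44 against mock). The polyamine enzyme ODC1 fell by 0.77 (-0.24) and DHODH, of pyrimidine synthesis, by 0.68 (-0.51).

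In lists of protein synthesis and nuclear transport more genes were lower than higher, by small amounts. Of 63 mitochondrial ribosomal proteins 51 were lower and 3 higher, with a median of -0.39. Of 46 genes of ribosome biogenesis and the nucleolus 39 were lower and 3 higher (median -0.44), and of 18 cytosolic tRNA synthetases 17 were lower and 0 higher (median -0.31). Of 44 genes of nuclear pores and transport 29 were lower and 6 higher (median -0.26), and of 40 translation factors 22 were lower and 5 higher (median -0.18). With all probe sets of a gene averaged, the last 2 medians were -0.17 and -0.09. These compare with 26.6% of all genes lower and a median of -0.05. Part of the distance lay on the side of NS siRNA: the medians of the first 3 lists were -0.18, -0.23 and -0.16 for Nrf2 siRNA against mock and 0.18, 0.18 and 0.17 for NS siRNA against mock. BYSL and NPM3, nucleolar factors of ribosome assembly, fell by 1.11 and 1.05 (-0.77 and -0.82 against mock). MRPL15 and MRPS34, of the large and small mitochondrial subunits, fell by 0.90 and 0.86 (-0.69 and -0.68), and the initiation factor EIF1AX by 0.91 (-0.74). MRPL36, of the large subunit, was among the few higher members, rising by 1.32 while it stood below mock (-0.30). MYC, known for raising genes of ribosome assembly, fell as given above; its part in the lower levels of these lists was not tested.

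**Figure D5:**
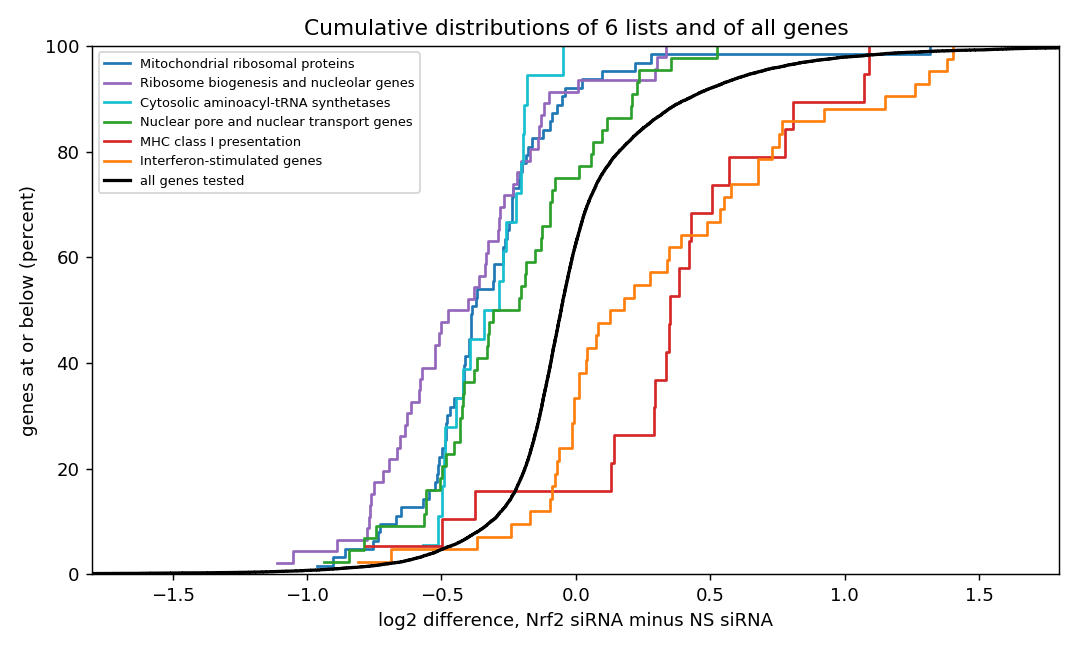
Cumulative percent of genes (up) at or below a log2 difference, Nrf2 siRNA minus NS siRNA (across), for 6 lists and for all 19775 genes (black). The 4 lists of protein synthesis and nuclear transport lie to the left of the black line over most of their range, with medians of -0.26 to -0.44, and MHC class I presentation and the interferon-stimulated genes lie to its right, at 0.35 and 0.15.

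The plot of cumulative distributions shows the members of these lists one by one. Of 41 chaperones 24 were lower and 8 higher (median -0.19, and -0.13 against mock), and of 60 splicing factors 29 were lower and 11 higher (17 higher with the most variable probe set). HSPA4, a heat shock protein of the HSP110 family, fell by 0.90 (-0.60 against mock) and the ubiquitin ligase STUB1 by 0.69 (-0.46), while the chaperone DNAJB6 rose by 1.56 and stood near mock (0.19).

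Cell cycle and death genes were mixed. CCND3, a G1 cyclin, stood at 12.67, 12.68 and 12.71 and at 11.34, 11.42 and 11.33 and fell 2.50-fold (-1.10 against mock). CCNE2, a cyclin of the S phase entry, fell by 1.02 (-0.33), and CCNG2, a cyclin linked to arrest, rose by 1.57 (1.40), with the inhibitor CDKN1B up by 0.60 (0.33). Of 29 genes of that list 16 were lower and 6 higher. In DNA repair 29 of 56 were lower and 8 higher (5 higher without NS siRNA replicate 3 or with quantile normalization), with FANCG, EXO1 and RAD50 down by 0.70, 0.63 and 0.64 (-0.78, -0.56 and -0.44). Beside BCL2A1, the pro-apoptotic BAX fell by 1.11 (-0.49) and the TRAIL receptor gene TNFRSF10A by 1.06 (-0.18), whereas the survival gene MCL1 rose by 0.59 (0.26). PER2 and NPAS2, of the circadian clock, rose by 0.76 and 0.69 (1.06 and 0.96), and BMAL2 fell by 1.20 (-0.23).

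Genes that follow each other in chromosome order were both changed at least 2-fold in 22 of 19708 measured neighbouring pairs (0.112%), 19 of them in the same direction. Of all genes 2.83% changed at least 2-fold, 2.11% higher and 0.713% lower. Some such pairs, also of the same direction, therefore arise without a link between neighbours, and whether 22 exceeds their number was not tested. They included HLA-DMA and HLA-DMB, PTGS2 and PLA2G4A, GBP3 and GBP1, MT1H and MT1X, IGFBP1 and IGFBP3, LXN and RARRES1, and the run STARD4, NREP and EPB41L4A among the rises. Among the falls were AKR1C1 and AKR1C2, SPP1 and ABCG2, and BYSL and CCND3. LXN, a carboxypeptidase inhibitor, rose by 1.24 beside its relative RARRES1 (3.33), and they differed from mock by 1.14 and 1.93. UCHL1 and LIMCH1 went apart, by -1.02 and 1.72 (-0.91 and 0.38 against mock). Relatives next to each other, such as the AKR1C, GBP and metallothionein genes, can share probe signal.

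How far 1 probe set speaks for a gene can be read from the genes that have several. Of the 559 genes changed at least 2-fold, 361 had more than 1 probe set; for 268 of these every probe set had the same sign, and for 17 a probe set was called in the other direction. Of the genes named above with a pair of probe sets, IGFBP1, HOXB8, NECTIN3 and PER2 had the stated sign in 1 of the 2.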

How the data were processed

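The values are log2 expression levels that the authors deposited as a series table, normalized by RMA per the submitters' processing notes; RMA removes background, equalizes the arrays' distributions and summarizes the probes of a probe set, and its version is not given in the sources used here. RMA can compress the folds of dim genes. Each probe set was named through GEO's platform annotation, with symbols updated to RefSeq GRCh38.p14 by Entrez ID: of 54675 probe sets, 41091 had 1 gene, 1801 several and 11721 none, and 62 were controls. Symbols were matched for 41037 probe sets and kept as listed for 54. For each of 19775 genes the probe set with the highest mean over 9 arrays was used.

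All 9 arrays were fitted together in 3 groups with limma 3.58.1 (lmFit and eBayes, R 4.3.3), without a block, and p-values were adjusted by Benjamini-Hochberg over all genes. A gene was called at an adjusted p under 0.05; 2-fold means a called gene with a log2 difference of at least 1. On simulated data with independent noise and 200 of 19775 genes changed, the same fit recovered 100% of 2-fold and 94% of 1.41-fold changes. It also called 9 unchanged genes. In the real data 9422 genes were called, so the setting differs and these rates do not carry over to the calls made here.

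Named genes were the 3 checks, the 40 largest rises and 40 largest falls outside the antioxidant list (arrays not overlapping, brighter mean above the median of all probe sets), list members changed at least 2-fold and up to 3 further members with the smallest adjusted p, marker genes and changed neighbours; the text gives a selection of them, the brightest or best known chosen with their values in view. Members and lists were chosen with earlier results of these data known. Alternatives were equal array medians, quantile normalization, a filter on dim genes, other rules for several probe sets, other fits, a stricter threshold and each array left out. The sequence around 1 promoter match is not reported here.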

Additional observations from a re-analysis of the deposited data

Results flagged for a closer look

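Signal outside the genes compared above was found in probe sets that could not be given a single gene. Among the 11721 unnamed probe sets 58 were at least 2-fold higher and 21 at least 2-fold lower after Nrf2 siRNA. Among the 1801 that list several genes 24 were higher and 8 lower by the same measure. Among the 41091 probe sets with a single gene 826 were at least 2-fold higher and 230 at least 2-fold lower. Such changes were thus a smaller share of the unnamed and several-gene probe sets, in both directions, than of the single-gene ones. The unnamed probe set that fell most fell by 3.59 on the log2 scale, from a mean of 10.95 to 7.35, and the one that rose most rose by 3.43. The largest changes among unnamed probe sets were thus of the size of the largest among named genes. These probe sets entered no list, and their level in mock was not part of the comparison.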

How the results depend on the processing

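The replicate numbers showed no clear pairing of the arrays. Deviations of same-numbered NS siRNA and Nrf2 siRNA arrays correlated at -0.208, 0.176 and 0.184, and those of different numbers at -0.342 to 0.2. With 3 arrays in a group these values cannot settle whether the cultures were paired. With the number as a block 9720 genes were called, against 9422 without it. Leaving out each array in turn gave 8173 to 9382 calls, 407 to 455 genes at least 2-fold higher, 132 to 162 at least 2-fold lower, and -1.88 to -1.78 for NFE2L2. Averaging all probe sets of a gene gave -1.03 for NFE2L2 and left 270 genes at least 2-fold higher, the cause of which was not tested, and an adjusted p under 0.01 left 3509 lower genes. Equal array medians gave 4341 higher and 4373 lower genes and quantile normalization 3913 and 5720, against 4156 and 5266. No gene named in the text reversed under any alternative run. The other fits, the stricter threshold, the filter on dim genes and leaving out a mock array do not alter a gene's difference. A reversal could therefore arise only under the remaining alternatives. Of 4885 pairs of a named gene and an alternative, 16 lost the call and 6 gained one. The result stayed the same in every alternative for 251 of the 258 genes checked. Of 2850 list counts under the alternatives, 121 moved by more than a set margin.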
